A study of Mus musculus with 28 samples.

Results

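Calmodulin is the main calcium sensor of neurons. It was examined through 5 genes in single neurons of the mouse primary motor cortex (M1): the calmodulin genes Calm2 and Calm3, neurogranin (Nrgn), the kinase subunit Camk2b and the calcineurin subunit Ppp3ca. They were chosen by name, and all 5 were found among the 1024 genes of the deposited table. The table holds 1 value per gene for each of 28 neurons of CD1 mice, collected at postnatal day 30. Embryos had been electroporated in utero at embryonic day 15 with pCAGIG, which gives GFP in all electroporated cells, with pHSE-FLPo, a recombinase under a heat shock response element, and with pFRT-RFP, a reporter that the recombinase turns on.

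All 3 groups were electroporated with these plasmids and were GFP positive, so neurons without electroporation are not among them. GFP reports pCAGIG alone, so whether a given RFP-negative neuron also took up the other plasmids is not known. The dams were injected intraperitoneally on embryonic days 16 and 17 with ethanol (EtOH, 25% in PBS) or with PBS alone. There were 15 RFP-positive EtOH neurons, whose red label reports past activity of the heat shock element, beside 7 RFP-negative EtOH and 6 RFP-negative PBS neurons. The dose behind a given EtOH neuron, 4.0 or 1.0 g/kg, was not stated, and RFP-positive PBS neurons were not analysed here. The time course label of the PBS neurons mentions EtOH, while their titles and exposure labels give PBS and were followed. The labels do not tie neurons to animals. Each group was therefore treated as 1 sample, its neurons are described by mean ± SD, and no p-values are given.

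When calcium enters a neuron, calmodulin binds it and then binds and activates target proteins. Among these targets are the kinase CaMKII, built from subunits such as the one Camk2b encodes, and the phosphatase calcineurin, whose catalytic subunit is encoded by Ppp3ca. These enzymes tend to act in opposite ways on synaptic strength, and neurogranin, a small protein of dendritic spines, holds calmodulin in its calcium-free form. Calmodulin is also the calcium sensor of the potassium channel encoded by Kcnn2, the gene named in the study's title.

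Calm2 (ENSMUSG00000036438) lies on the minus strand of chromosome 17 from 87433412 to 87446935 and Calm3 (ENSMUSG00000019370) on the minus strand of chromosome 7 from 16915379 to 16924114, both in build GRCm38 with the GENCODE M21 annotation. The coding sequences of both genes have 450 bases and encode the same 149 amino acids, with 0 differences. They differ at 78 of the 450 bases, an identity of 82.7%, and 74 of the 78 differences are at the third base of a codon. The first 120 coding bases, counted from 1 at the A of the start codon, are shown because reads of the coding regions can be assigned to one gene or the other only through such differences. Capitals mark the 18 bases of this stretch that differ between the genes.

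Calm2: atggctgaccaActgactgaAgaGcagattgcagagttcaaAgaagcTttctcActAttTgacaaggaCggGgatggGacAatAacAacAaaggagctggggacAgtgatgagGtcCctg

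Calm3: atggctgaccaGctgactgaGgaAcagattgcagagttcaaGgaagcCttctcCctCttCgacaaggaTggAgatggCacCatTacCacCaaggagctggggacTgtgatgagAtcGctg

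The longest stretch without a difference between the 2 coding sequences is 17 bases, and 0 of their windows of 51 bases, the sequencing length, are identical. No error-free read of 51 bases from within one coding region is thus shared with the other. Over all annotated transcripts of each gene, 141 of 1513 windows of Calm2 (9.32%) also occur in transcripts of 3 other genes. For Calm3 this holds for 60 of 2463 windows (2.44%), which occur in transcripts of 1 other gene, and for Camk2b for 14 of 9457 windows (0.148%). For Nrgn and Ppp3ca it holds for 0 of 1449 and 0 of 10019 windows. The handling of reads with several matches is not stated, so values of Calm2 in particular can include reads of other genes.

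Nrgn (ENSMUSG00000053310) lies on the minus strand of chromosome 9 from 37544492 to 37552904, Camk2b (ENSMUSG00000057897) on the minus strand of chromosome 11 from 5969644 to 6066362, and Ppp3ca (ENSMUSG00000028161) on chromosome 3, plus strand, from 136670124 to 136937727. Exons of the 5 genes overlap those of 0 other annotated genes. RefSeq promoter sequences (GRCm38.p6) were at hand for Calm3, Nrgn and Camk2b. These windows follow RefSeq start sites that differ from the ends of the GENCODE spans above, so that the window of Camk2b lies wholly inside its printed span and those of Calm3 and Nrgn lie partly inside. The 250 bases before the RefSeq start sites have a GC content of 69.2%, 58.4% and 78.4%, against a median of 52.4% over 32851 promoters. The paired repeat units of a heat shock element were searched as GAANNTTC and TTCNNGAA, each of which reads the same on both strands. Neither occurs in these 3 windows, while 6.69% and 7.17% of all promoter windows hold them. This says only that these letters are not in these windows.

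Values of the table are logarithms, read here as base 2, an assumption since no base is stated. They ran from 1.00 to 13.2 and most of them were low, with 33.7% above 4, the trough above the lowest mode of the values. Transcripts below 4 are not called absent. Read depth is unknown. As a substitute, the number of genes above 4 per neuron had medians of 327, 357 and 323.5 in RFP-negative EtOH, RFP-positive EtOH and PBS neurons, with a full range of 273 to 434. Of the pyramidal neuron markers, Mef2c lay above 4 in 6 of 7, 13 of 15 and 6 of 6 neurons, and Nrgn, which is also such a marker, is described with the results. Gad1, which marks inhibitory neurons, lay above 4 in 2, 3 and 1 neurons. Since the 5 genes can differ between neuron types, differences of the 5 genes that change sign or their side of 1 without these 6 neurons are given both ways. Astrocyte markers in the table were Slc1a2 and Aldoc, and their summed level had medians of 3.42, 6.18 and 8.39 in the 3 groups in the same order, with ranges of 2.56 to 9.03, 2.72 to 10.23 and 3.07 to 9.79. For the microglial markers Csf1r and Cst3 the medians were 6.61, 5.91 and 4.25 and the ranges 3.17 to 11.37, 2.77 to 10.53 and 3.04 to 8.35, and the part of glial RNA in the results was not tested. A set of 4 neurons, made of number 1 of the RFP-negative EtOH group, numbers 1 and 2 of the RFP-positive group and number 6 of the PBS group, shared fewer than 5 exactly equal values with other neurons, while the remaining 24 shared at least 5. Differences among the 24 neurons, 6, 13 and 5 per group, are likewise given where the sign or the side of 1 changes.

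**Figure D1:**
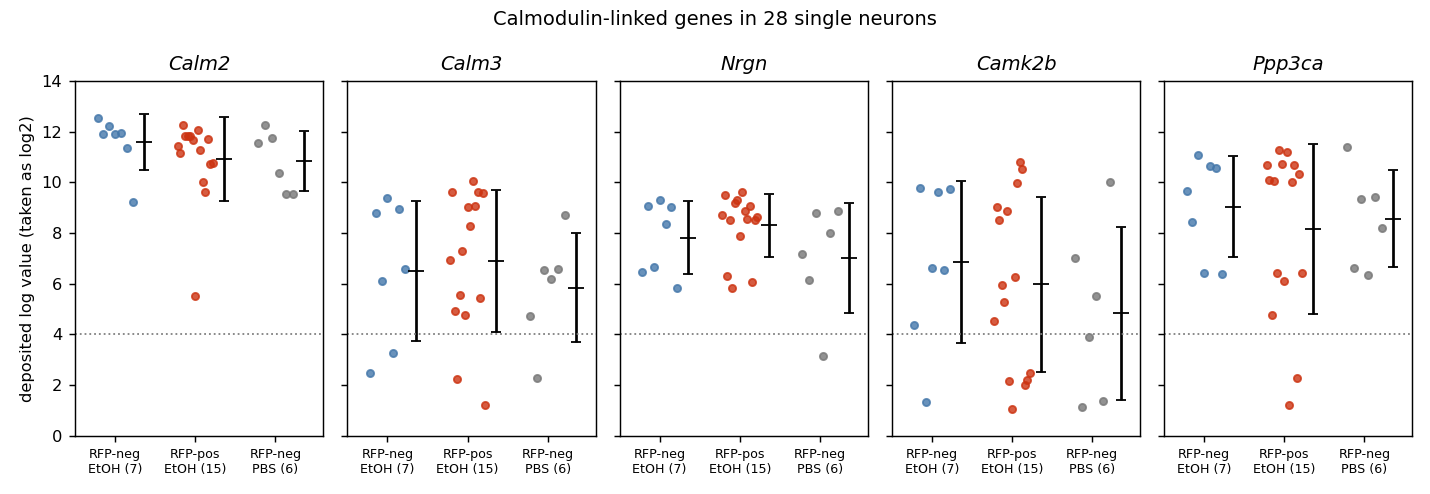
Deposited log value (vertical axis, taken as log2) of each of the 5 genes in each neuron. Points are neurons, bars are group means with SD, and the dotted line is at 4. Calm2 lies above 4 in all 28 neurons with 1 low point at 5.52, Nrgn forms a band in 27 of 28 neurons, and Camk2b spreads over the whole range in every group.

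Calm2 was among the most abundant transcripts of these neurons. Its mean over all neurons was 11.07, the 2nd highest of the 1024 genes, and it lay above 4 in 28 of 28 neurons, as did 8 genes in all (0.781% of the table). The within-neuron rank of Calm2 had a median of 8 and reached 1, where 1 is the highest value of the table in that neuron. Cufflinks, which the submitters name, reports levels per transcript length, but whether the deposited values keep that scale is not stated, so ranks between genes are descriptions. Its within-group SD of 1.46 was the 3rd smallest of the table. Of the 3 genes with a mean within 0.5 of that of Calm2, 1 had a smaller SD, and their SDs ran from 0.74 to 2.10.

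In RFP-negative EtOH neurons the values of Calm2 had a lowest of 9.21, a median of 11.91 and a highest of 12.55. In RFP-positive EtOH neurons the lowest was 5.52, the median 11.43 and the highest 12.27. In PBS neurons they were 9.53, 10.98 and 12.25. The groups overlapped, and the neuron far below the rest was RFP-positive EtOH neuron 8, in which Calm2 ranked 280th. The next lowest in that group was 9.60 in neuron 12. Both neurons had Gad1 above 4, at 6.87 and 9.38, as did RFP-negative EtOH neuron 7, the lowest of its group for Calm2, with Gad1 at 7.995. Calm2 was higher in the other neurons with Gad1 above 4. It was 11.91 in RFP-negative EtOH neuron 4, where Gad1 was only 4.01. It was 11.17 in RFP-positive EtOH neuron 2 and 10.39 in PBS neuron 4, with Gad1 at 9.83 and 13.2. These values of RFP-positive EtOH neuron 2 and PBS neuron 4 lay below the Calm2 medians of their groups. The lowest PBS neurons for Calm2, numbers 5 and 6 at 9.53 and 9.54, did not have Gad1 above 4. Over the 28 neurons, RFP-positive EtOH neuron 8 included, Calm2 and Gad1 had a Pearson r of -0.45.

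Calm3, the other calmodulin gene of the set, was lower and far less even. It had a lowest value of 2.49, a median of 6.58 and a highest of 9.37 in RFP-negative EtOH neurons. The corresponding values were 1.23, 7.30 and 10.05 in RFP-positive EtOH neurons and 2.29, 6.37 and 8.71 in PBS neurons. It lay above 4 in 5 of 7, 13 of 15 and 5 of 6 neurons, so that each group held neurons in the lowest mode beside neurons above 8. Its mean of 6.58 over all neurons ranked 65th of the table. The within-group SD was 2.68, and of the 45 genes with a mean within 0.5 of it, 14 had a smaller SD. Calm3 was above Calm2 in 2 neurons, by far in RFP-positive EtOH neuron 8 (9.02 against 5.52) and barely in neuron 12 of that group (9.63 against 9.60).

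Nrgn, neurogranin, varied less between neurons than other genes of its level, although it ran from 3.13 to 9.61. Its lowest, median and highest values were 5.85, 8.36 and 9.31 in RFP-negative EtOH neurons, 5.85, 8.63 and 9.61 in RFP-positive EtOH neurons, and 3.13, 7.58 and 8.86 in PBS neurons. All groups overlapped, and the only neuron below 4 was PBS neuron 4. That neuron had a Gad1 value of 13.2, the highest value of the whole table. In the other neurons with Gad1 above 4, Nrgn was not below 4. It was 9.31 and 5.85 in RFP-negative EtOH neurons 4 and 7. In RFP-positive EtOH neurons 2, 8 and 12 it was 9.51, 7.88 and 9.06. The within-group SD of Nrgn was 1.52, the 4th smallest of the 1024 genes. Among the 18 genes with a mean within 0.5 of that of Nrgn (7.91), 0 had a smaller SD, and their SDs ran from 1.91 to 3.72 with a median of 3.01.

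Camk2b, the beta subunit of CaMKII, which also binds actin, was the most variable of the 5 genes. It had a lowest value of 1.34, a median of 6.61 and a highest of 9.78 in RFP-negative EtOH neurons. In RFP-positive EtOH neurons these were 1.04, 5.97 and 10.80, and in PBS neurons 1.15, 4.71 and 10.02. The number of neurons above 4 was 6 of 7, 10 of 15 and 3 of 6, shares of 85.7% (95% exact Clopper-Pearson interval 42.1 to 99.6%), 66.7% (38.4 to 88.2%) and 50% (11.8 to 88.2%). The 3 intervals, which reflect counting error alone, overlap. The within-group SD of 3.39 was larger than that of 52 of the 76 genes with a mean within 0.5 of that of Camk2b.

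Ppp3ca, the catalytic subunit A alpha of calcineurin, was high in most neurons. Its lowest, median and highest values were 6.40, 9.68 and 11.07 in RFP-negative EtOH neurons and 6.33, 8.79 and 11.40 in PBS neurons, so that it lay above 4 in 7 of 7 and 6 of 6. In RFP-positive EtOH neurons they were 1.22, 10.06 and 11.28. Values below 4 occurred in this group alone, in neurons 10 and 13 with 1.22 and 2.28, and 13 of 15 neurons lay above 4. The exact interval of that share, 59.5 to 98.3%, overlaps those of the other groups, which reach down to 59.0% and 54.1%. The RFP-positive group thus had the highest median of the 3 groups for Ppp3ca and the lowest mean, 8.15 ± 3.36 (SD, n = 15) against 9.04 ± 1.99 (SD, n = 7) and 8.56 ± 1.91 (SD, n = 6).

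Calm2 came first in the order of means in every group, followed by Ppp3ca and Nrgn in both RFP-negative groups and by Nrgn and Ppp3ca in the RFP-positive group. Calm2 was above the gene next in order in 7 of 7, 14 of 15 and 6 of 6 neurons. Nrgn and Ppp3ca differed by 0.16 ± 2.76 within RFP-positive neurons, less than the spread. Nrgn was above Ppp3ca in only 5 of these 15 neurons, so the order of the means is not that of most of them. Calm3 and Camk2b were the lowest 2 in all groups and differed within neurons by less than the SD of that difference, for example by 0.93 ± 3.47 in RFP-positive neurons. All 5 genes lay above 4 together in 4 of 7, 8 of 15 and 2 of 6 neurons, again in the order RFP-negative EtOH, RFP-positive EtOH and PBS. No neuron had fewer than 3 of them above 4.

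Setting RFP-positive against RFP-negative EtOH neurons asks what sets neurons with reporter activation apart from exposed neurons without it. None of the 5 genes differed by 1 or more between the group means, whereas 42% of all genes did, 26.3% being higher and 15.7% lower in RFP-positive neurons. The mean of Calm2 was 10.92 ± 1.67 (SD, n = 15) with RFP and 11.59 ± 1.11 (SD, n = 7) without it, which differ by -0.67. Camk2b averaged 5.97 ± 3.46 against 6.85 ± 3.19, a difference of -0.88, and Ppp3ca differed by -0.89. Calm3 and Nrgn differed by 0.40 and 0.49, values that became -0.11 and -0.02 after scaling to a common upper quartile. Each of these differences was smaller than the SDs among neurons.

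Over all genes the median difference was 0.31, and the differences of Calm2, Camk2b and Ppp3ca stood at -0.98, -1.19 and -1.20 relative to it, while Calm3 and Nrgn stood at 0.09 and 0.18. Upper quartile scaling shifted every difference in this comparison by -0.51. With it, 3 of the 5 genes were lower by 1 or more, with Calm2 at -1.18, Camk2b at -1.39 and Ppp3ca at -1.40, beside 268 of all 1024 genes after the same scaling. The Calm3 difference was -0.27 without RFP-negative neuron 1 and 0.88 without RFP-negative neuron 4. The Calm2 difference was -0.28 without RFP-positive neuron 8 and -1.06 without RFP-negative neuron 7. That of Camk2b was -1.80 without RFP-negative neuron 3 and -0.39 without RFP-negative neuron 2. For Ppp3ca it was -0.39 without RFP-positive neuron 10, -1.32 without RFP-negative neuron 7 and 0.38 when group medians were compared. Among the 24 neurons, Camk2b differed by -1.42 and Ppp3ca by -1.12, 2 of 5 genes beside 178 of 1024, and Calm3 by -0.48. Without the neurons with Gad1 above 4, Ppp3ca differed by -2.14, as 1 of 5 genes lower by 1 or more beside 190 of 1024.

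**Figure D2:**
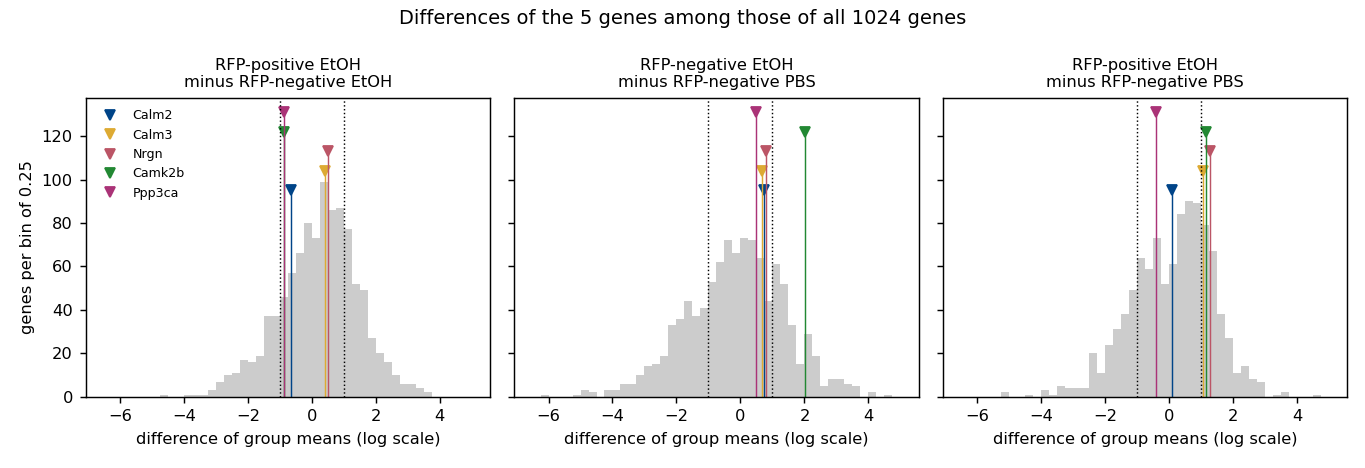
Differences of group means (horizontal axis, log scale) for all 1024 genes as grey histograms with bins of 0.25, in the 3 comparisons. Coloured markers stand for the 5 genes and dotted lines for differences of 1 in size. In the left panel all 5 genes lie between the lines, in the middle panel Camk2b lies at 2.03 beyond them, and in the right panel Calm3, Nrgn and Camk2b lie just beyond 1.

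The comparison of RFP-negative EtOH with PBS neurons asks how exposure relates to expression in neurons without reporter activation. All 5 genes had higher means in EtOH neurons, and 1 of them, Camk2b, was higher by 1 or more, beside 23.8% of all genes. None was lower by 1 or more, beside 26.8% of all genes, and 50.6% passed in either direction. Camk2b averaged 6.85 ± 3.19 (SD, n = 7) against 4.83 ± 3.42 (SD, n = 6), a difference of 2.03 that was smaller than either SD. It exceeded the difference of 92.1% of all genes. The other differences were 0.75 for Calm2, 0.66 for Calm3, 0.80 for Nrgn and 0.48 for Ppp3ca. The median over all genes was -0.06.

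The Camk2b difference kept its sign in all settings that were run. It was 3.48 among the 24 neurons, 1.64 without the neurons with Gad1 above 4, 0.92 when arithmetic means were compared, 1.29 without PBS neuron 2 and 3.07 without PBS neuron 6. The difference of Nrgn was 0.02 without PBS neuron 4, and that of Calm3 was -0.05 without PBS neuron 2 and 1.33 without RFP-negative EtOH neuron 1. Calm2 differed by 1.15 without EtOH neuron 7 and by 0.33 among the 24 neurons. For Ppp3ca the difference was 0.03 without PBS neuron 4 and 1.04 without PBS neuron 1. Without the neurons with Gad1 above 4, 3 of the 5 genes were higher by 1 or more, beside 251 of 1024 genes, with Calm2 at 1.07 and Ppp3ca at 1.08 next to Camk2b, while Nrgn and Calm3 differed by 0.12 and 0.15. Among the 24 neurons the 3 genes were Calm3 at 1.91, Nrgn at 1.40 and Camk2b, beside 263 of 1024 genes. With arithmetic means Calm3 differed by 1.10. Upper quartile scaling added 0.55 to every difference in this comparison, which put all 5 genes at 1 or more together with 362 of 1024 genes and moved the median over all genes to 0.49. The oligodendrocyte marker Mbp lay above 4 in 1 of 7 EtOH and 4 of 6 PBS neurons. The astrocyte markers were also lower in EtOH neurons, with means of 4.37 ± 3.33 against 6.43 ± 3.28 for Slc1a2 and of 1.85 ± 0.49 against 3.98 ± 3.12 for Aldoc. The part of these markers in the differences was not tested.

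RFP-positive EtOH neurons were also set against PBS neurons, which served in the preceding comparison too, so the results of both share these 6 neurons. Calm3, Nrgn and Camk2b were higher by 1 or more in RFP-positive neurons, 3 of 5 genes beside 24.9% of all genes. Calm3 averaged 6.91 ± 2.80 (SD, n = 15) against 5.84 ± 2.16 (SD, n = 6), a difference of 1.07. Nrgn averaged 8.31 ± 1.24 against 7.02 ± 2.17, a difference of 1.29, and Camk2b differed by 1.15. Calm2 and Ppp3ca differed by 0.08 and -0.41, and 0 of the 5 genes were lower by 1 or more, beside 19.2% of all genes, so that 3 of 5 genes stood beside 44.1% in either direction. Calm2 differed by -0.24 among the 24 neurons, by -0.18 without PBS neuron 5 and by 0.47 without RFP-positive neuron 8. The median over all genes was 0.26, and relative to it Calm3, Nrgn and Camk2b stood at 0.81, 1.03 and 0.89. Neurons of both groups overlapped in every gene.

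These 3 differences rested in part on single PBS neurons. Without PBS neuron 4 the difference of Nrgn was 0.51, and without PBS neuron 2 those of Calm3 and Camk2b were 0.36 and 0.41. Without PBS neuron 6 they were 1.66 for Nrgn, 1.64 for Calm3 and 2.19 for Camk2b. When the 6 neurons with Gad1 above 4 were left out, Nrgn differed by 0.38, Calm3 by 0.51 and Camk2b by 1.07, while Ppp3ca differed by -1.06, so that 1 gene was higher and 1 lower by 1 or more, beside 261 and 221 of 1024 genes. With arithmetic means Calm3 alone passed, at 1.55, with Nrgn at 0.81 and Camk2b at 0.92, while 480 of 1024 genes did. With low values raised to 4 Camk2b was at 0.89, which left 2 of 5 genes beside 119 of 1024. Among the 24 neurons the differences were 1.53 for Nrgn, 1.43 for Calm3 and 2.06 for Camk2b, beside 307 of 1024 genes higher by 1 or more. For Ppp3ca the difference of medians was 1.27, against -0.41 for the means. Without PBS neuron 1 it was 0.16.

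**Figure D3:**
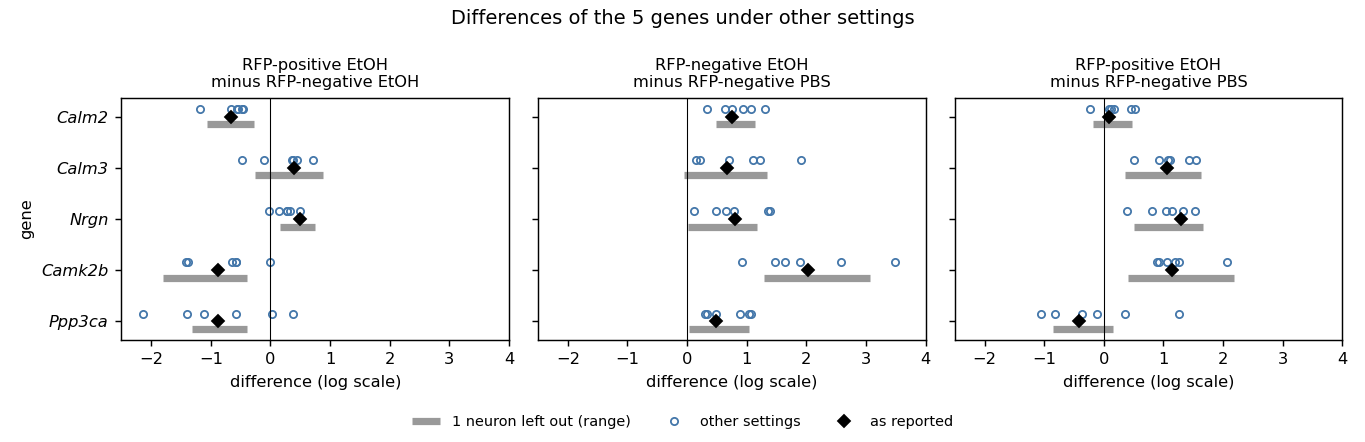
Difference of group means on the log scale (horizontal axis) for each of the 5 genes in the 3 comparisons. Black diamonds are the values as reported, open circles the 6 other settings, and grey bars the range when 1 neuron at a time is left out. Camk2b stays above 0 in both comparisons with PBS, at 2.03 and 1.15 as reported, while circles of Ppp3ca lie on both sides of 0 in the outer panels.

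Across neurons the 2 calmodulin genes did not go together. Calm2 and Calm3 had a Pearson r of -0.38 and a Spearman rho of -0.45 over 28 neurons, and an r of -0.37 within the 15 RFP-positive neurons. The r was -0.41 without the 2 neurons farthest from the median of Calm2, -0.33 among the 24 neurons and -0.20 after upper quartile scaling. Neurons with Calm3 below 4 all had Calm2 above 10, but so did most of the other neurons. Nrgn and Calm3 had an r of 0.40 and a rho of 0.52, Calm3 and Camk2b an r of 0.38 and a rho of 0.42, and Nrgn and Ppp3ca an r of 0.40 and a rho of 0.44. Within RFP-positive neurons Nrgn and Ppp3ca had an r of 0.63. The remaining 6 of the 10 pairs had an r between 0.01 and 0.24. Neurons may share an animal, a library preparation and a scaling, so these values are descriptions. The number of genes above 4 per neuron had an r between -0.05 and 0.28 with the 5 genes.

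**Figure D4:**
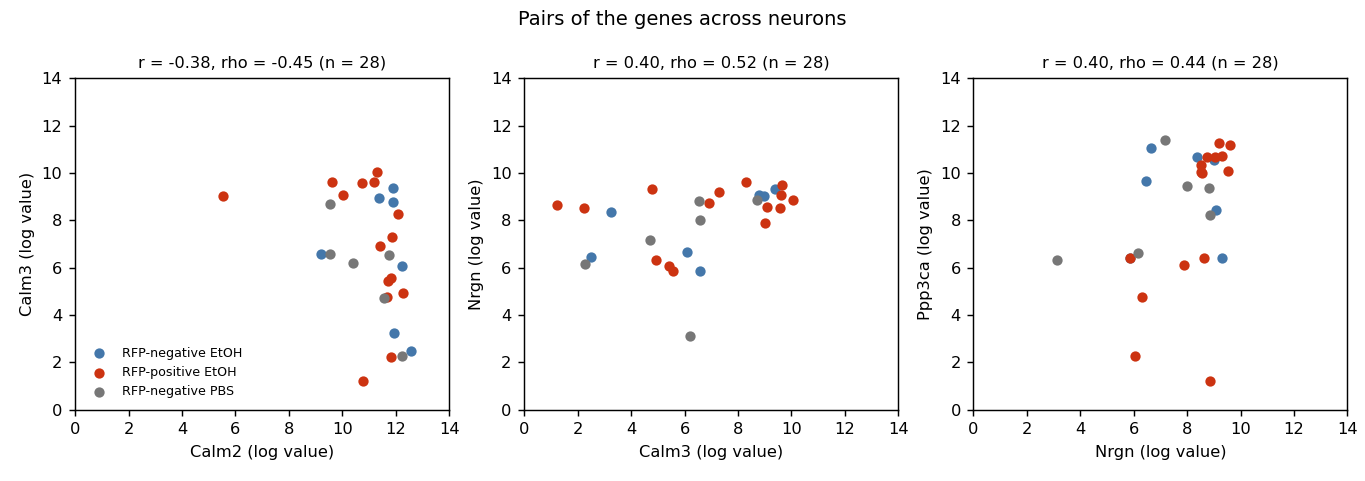
Log values of 3 pairs of the genes, 1 point per neuron, coloured by group. The lowest Calm3 values lie at Calm2 levels that most neurons reach (r = -0.38). All neurons with Calm3 above 7 also have Nrgn above 7 (r = 0.40), and for Nrgn and Ppp3ca (r = 0.40) 2 RFP-positive neurons lie near the bottom.

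The other genes of the table with the most similar pattern were ranked by Pearson r over the 28 neurons among 990 candidates. For Calm2 they were Ywhaq, a 14-3-3 protein (r = 0.62), Fkbp1a, the FK506-binding protein through which that drug inhibits calcineurin (0.49), and Sub1 (0.48). For Calm3 they included Cox6a1 of cytochrome c oxidase (0.50) and the prefoldin subunit Pfdn5 (0.50). Pfdn5 lay above 4 in only 5 of 28 neurons. For Nrgn they were Camk2n1 (0.52), an inhibitor of CaMKII, the thyroid hormone receptor gene Thra (0.52) and the RNA helicase Ddx5 (0.47). For Camk2b they were Ube2k (0.55), Cox4i1 (0.54) and Cox6a1 (0.53), the first a ubiquitin-conjugating enzyme and the others subunits of cytochrome c oxidase. For Ppp3ca they were Mlf2 (0.58), Ghitm (0.56) and Ndufa4 (0.55). These are the highest of many values, and the lowest r ran from -0.51 to -0.67 for the same 5 genes.

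A list of 90 other targets, regulators and buffers of calmodulin had 15 genes in the table. In RFP-positive against RFP-negative EtOH neurons, 2 of the 15 were higher and 1 was lower by 1 or more, beside 26.3% and 15.7% of all genes, with a median of 0.14 against 0.31 over all genes. In RFP-negative EtOH against PBS neurons, 5 were higher and 1 was lower, beside 23.8% and 26.8%, with a median of 0.02 against -0.06. In RFP-positive EtOH against PBS neurons, 7 were higher and 1 was lower, beside 24.9% and 19.2%, with a median of 0.77 against 0.26.

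**Figure D5:**
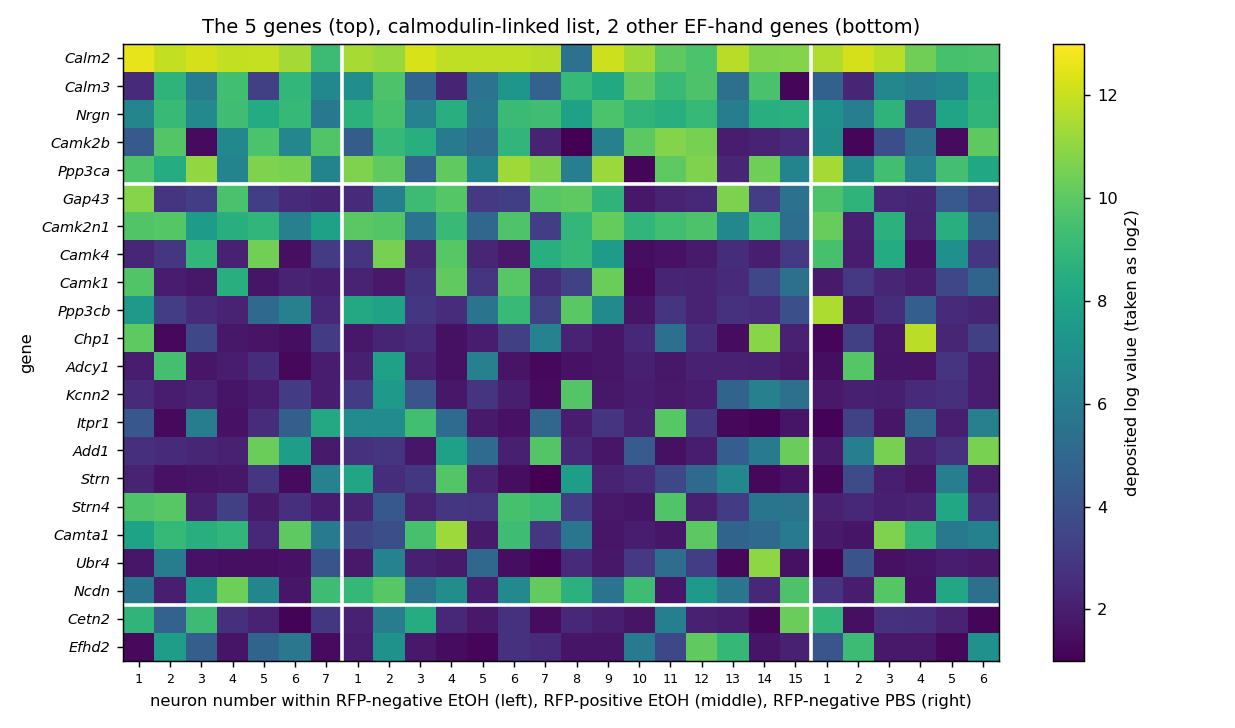
Log values (colour, taken as log2) of the 5 genes at the top, the 15 further calmodulin-linked genes and 2 other EF-hand genes at the bottom, in the 28 neurons along the horizontal axis by group. Calm2, Nrgn and Ppp3ca are bright in nearly every column, and Camk2n1 is bright in 25 of 28. Ncdn and Camta1 lie above 4 in 20 and 18 neurons, and each other listed or EF-hand gene in 4 to 13.

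Among the kinases and their regulators, Camk2n1, the CaMKII inhibitor, was high in most neurons. It lay above 4 in 7 of 7, 14 of 15 and 4 of 6 neurons of the 3 groups, with medians of 8.57, 9.07 and 6.69. Its means were 8.40 ± 1.27 (SD, n = 7), 8.02 ± 2.24 (SD, n = 15) and 6.09 ± 3.57 (SD, n = 6), so that it was higher than in PBS neurons by 2.31 in RFP-negative and by 1.93 in RFP-positive EtOH neurons. The 2 PBS neurons below 4 were numbers 2 and 4, at 2.05 and 2.15. Ncdn, neurochondrin, a regulator of CaMKII phosphorylation, lay above 4 in 5 of 7, 12 of 15 and 3 of 6 neurons and was higher than in PBS neurons by 1.14 and 1.74 in the 2 EtOH groups. With 1 neuron left out at a time, the first of these values ran from 0.43 (without RFP-negative EtOH neuron 4) to 2.11 (without PBS neuron 3) and was under 1 for 6 of the 13 neurons, and the second ran from 1.07 (without PBS neuron 4) to 2.71 (without PBS neuron 3). Camk1, which encodes CaM kinase I, was low in most neurons, with medians of 2.00, 2.74 and 2.63. Its means were 3.99 ± 3.55 (SD, n = 7), 4.20 ± 3.19 (SD, n = 15) and 2.91 ± 1.16 (SD, n = 6), so that the EtOH groups differed from PBS neurons by 1.08 and 1.28. The first of these was 0.12 without RFP-negative EtOH neuron 1 and 0.32 without neuron 4, and the second was at least 0.85 with 1 neuron left out, under 1 for 3 neurons. Camk4, a nuclear CaM kinase, differed by -0.76 and -0.73 in the same comparisons.

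Of the calcineurin genes, Ppp3cb, the other brain catalytic subunit, was much lower than Ppp3ca on the deposited scale. It lay above 4 in 3 of 7, 6 of 15 and 2 of 6 neurons and differed by 0.66, -0.03 and 0.63 in the 3 comparisons. Chp1, a calcineurin-like calcium-binding protein, lay above 4 in 5 of 28 neurons. Gap43, a growth cone protein that binds calmodulin through the same type of motif as neurogranin, lay above 4 in 2 of 7, 8 of 15 and 3 of 6 neurons. It was higher by 0.99 in RFP-positive than in RFP-negative EtOH neurons, with SDs of 3.46 and 3.66.

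Camta1, a calmodulin-binding transcription activator, had the largest difference among the listed genes in the comparison of the EtOH groups. Its mean was 5.27 ± 3.28 (SD, n = 15) with RFP and 7.53 ± 2.60 (SD, n = 7) without, which differ by -2.26, with 8 of 15 against 6 of 7 neurons above 4. Against PBS neurons, RFP-negative EtOH neurons differed by 1.66 and RFP-positive ones by -0.60. With 1 neuron left out, the difference between the EtOH groups ran from -3.12 to -1.85, and the value of 1.66 ran from 0.83 (without PBS neuron 2) to 2.62 (without PBS neuron 3). Strn and Strn4 encode striatins, calmodulin-binding scaffold proteins. Strn was higher by 1.36 in RFP-positive than in RFP-negative EtOH neurons and by 1.12 than in PBS neurons, and Strn4 was higher than in PBS neurons by 1.23 in RFP-negative and 1.15 in RFP-positive EtOH neurons. The difference of Strn between the EtOH groups was 0.94 without RFP-positive neuron 4 and that from PBS neurons 0.70, and the differences of Strn4 were 0.33 without RFP-negative EtOH neuron 2, 0.77 without RFP-positive neuron 11, and 2.22 and 2.14 without PBS neuron 5. Add1, the cytoskeletal adducin alpha, differed from PBS neurons by -1.47 and -1.34 in these groups, and by -0.49 and -0.36 without PBS neuron 6. Ubr4, a ubiquitin ligase that binds calmodulin, had means of 3.27 ± 2.66 (SD, n = 15) in RFP-positive EtOH and 2.03 ± 1.04 (SD, n = 6) in PBS neurons, a difference of 1.25 that was 0.70 without RFP-positive neuron 14. Itpr1, an intracellular calcium release channel, and Adcy1, a calmodulin-stimulated adenylyl cyclase, differed by less than 1 in every comparison.

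Kcnn2 lay above 4 in 6 of 15 RFP-positive EtOH neurons and in 0 of 7 and 0 of 6 of the others, counts of 0 that allow shares of up to 42.9% and 50%, taken as 3 neurons of the total. The neuron with the highest Kcnn2 value, RFP-positive EtOH neuron 8 at 9.77, was the one with the lowest Calm2 value, 5.52, and the lowest Camk2b value, 1.04. The r of Kcnn2 with Calm2 was -0.52 over 28 neurons and -0.04 over the 27 others, so it rested on that neuron. With Camk2b the r was -0.35 and -0.22.

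A second list of 24 other EF-hand calcium sensors and buffers had 2 genes in the table, Cetn2 and Efhd2. Cetn2, a centrin, differed by -1.02 between RFP-positive and RFP-negative EtOH neurons and by 1.34 between RFP-negative EtOH and PBS neurons. Without RFP-negative EtOH neuron 3 these values were -0.24 and 0.56. Efhd2 differed by less than 1 in all 3 comparisons.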

How the data were processed

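Contents of single neurons were drawn from live M1 cells, converted to cDNA with a SMARTer kit and to libraries with a Nextera XT kit, and read for 51 cycles from 1 end, per the labels' protocols. Per the labels' protocols, CASAVA 1.8 demultiplexed the reads and the FASTX-Toolkit filtered them by quality. Bowtie2, Cufflinks 2.2.1 and GRCm38 are named in the submitters' processing notes, without settings. The authors deposited logarithms, read here as log2. No header or label gives the base, and another base would multiply each difference by the same number. The genes of the table are a selection whose cut-off is unknown. It held 1024 genes in 28 columns, 0 columns of other samples and 0 pairs of identical neurons.

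Groups were taken from the titles. The series' design text gives a smaller number of PBS neurons than the 6 that have titles and columns, and all 6 were used. For each comparison, the difference of group means of the deposited values was computed for all 1024 genes, and a size of at least 1 was used as the mark for counting. Neurons of 1 animal are not independent, and the animals are not named, so no p-values were computed. Depth per neuron is unknown, which leaves precision unknown apart from the spread of the neurons. Named genes were the 5 genes, the 3 genes with the highest r for each, passing over predicted genes, pseudogenes and clone names, and the genes of the calmodulin-linked list with a difference of at least 1. Genes of the lists were also named beyond that rule, after their values had been seen: Camk4, Ppp3cb, Chp1, Gap43, Itpr1, Adcy1, Cetn2 and Efhd2. The 5 genes, the lists, the mark of 1 and the trough at 4 were chosen with earlier results of these data known. Some listed items, and a planned sum over calmodulin genes, are not reported here. The calculation of differences was tested on simulated data. Alternatives were group medians, arithmetic means, upper quartile scaling, raising low values to 4, leaving out neurons by Gad1 or by shared values, and leaving out each neuron in turn (for listed genes this was chosen after seeing the data). Markers of astrocytes and microglia (2 genes each in the table) and of endothelial cells and blood (0) were also looked up. Python 3.11.15, numpy 2.4.6, pandas 2.3.3 and scipy 1.17.1 were used.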

Additional observations from a re-analysis of the deposited data

Results flagged for a closer look

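In groups of 7 and 6 neurons, a neuron was marked when its gap to the nearest other, divided by the range of the group, passed Dixon's 95% critical value. Among 44 such groups of values, 10 were marked, of which 1 concerned the 5 genes. The critical value marks about 1 in 20 by chance only when values are normally distributed. Most values here lie in a low mode with others far above it, so 10 of 44 cannot be read against that rate. Calm2 was 9.21 in RFP-negative EtOH neuron 7, with the nearest other at 11.37, and Gad1 was 7.995 in that neuron. The other 9 were single neurons above the rest of their group in listed genes. Not all of these genes were low in other neurons. For example, Ppp3cb lay above 4 in 11 of 28 neurons, and Ubr4 reached 10.95 among RFP-positive EtOH neurons. Chp1 was 10.03 in RFP-negative EtOH neuron 1 and 11.74 in PBS neuron 4, and Adcy1 was 9.47 in RFP-negative EtOH neuron 2 and 9.82 in PBS neuron 2. In RFP-negative EtOH neuron 7, Strn was 6.30. In PBS neuron 1, Ppp3cb was 11.52 and Cetn2 was 8.94. Strn4 was 8.18 in PBS neuron 5 and Ubr4 was 4.06 in PBS neuron 2.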

How the results depend on the processing

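Across the 6 other settings, all 15 differences of the 5 genes moved by less than 1 SD among neurons, a wide margin since these SDs reach above 3. The sign changed in 2 of 15 with group medians, arithmetic means, upper quartile scaling and the 24 neurons each, and in 0 of 15 after raising low values to 4 or leaving out the neurons with Gad1 above 4. No difference of size 1 or more changed sign in these settings or when 1 neuron was left out. Counts over all genes depended on the setting. The number higher by 1 or more in RFP-positive than in RFP-negative EtOH neurons was 269 as reported, 138 with medians, 518 with arithmetic means, 139 with upper quartile scaling and 150 with low values raised to 4. The number lower was 161 as reported, 268 with upper quartile scaling and 107 with low values raised. The number higher in RFP-negative EtOH than in PBS neurons was 244, against 157 with medians and 145 with low values raised, and that in RFP-positive EtOH against PBS neurons was 255, against 115, 480 with arithmetic means and 119 with low values raised. The share of PBS neurons with Nrgn above the threshold was 83.3% at 4 and 100% at 3. The r of Calm2 and Calm3 was -0.38 as reported and -0.20 after upper quartile scaling. The cause was not tested. No paired analysis was possible because the numbers of the neurons only name them and no result comes from a test. The planned sum over calmodulin genes was not run. Depth is unknown, so low values cannot be told apart from missed transcripts.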
